A study of Mus musculus with 12 samples.

Results

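The comparison described here sets 3 mouse T cell leukemia libraries that carried Zmiz1 alone against 3 that carried empty vectors. The 6 libraries were taken from a series of 12 by their titles and by the column headers of their FPKM files (fragment counts scaled by transcript length and library size). Of the 23284 genes in the table, those averaging 1 FPKM or more across all 12 libraries were tested, 10152 in number. The series asks how Zmiz1 and Notch1, alone and together, change gene expression in the line 8946, a cultured murine T lymphoblastic leukemia line. That line is known from other work to carry a MYC transgene that doxycycline can switch off.

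All cells were transduced with a pair of retroviruses and sorted for both reporters, so that every library comes from cells that were GFP+ and NGFR+. The control group received the empty MigR1 vector, which carries GFP, and the empty NGFR vector, which carries a nerve growth factor receptor reporter. The Zmiz1-titled group received, by its titles and headers, the empty MigR1 vector and Zmiz1-IRES-NGFR. The Notch1-titled group received L1601P-IRES-GFP, which expresses a mutant Notch1, and the empty NGFR vector, and the combined group received both expression vectors. Each group held 3 libraries. The cell line labels of the single-vector groups are exchanged: the Zmiz1-titled libraries carry the label L1601P/NGFR and the Notch1-titled libraries the label MigR1/Zmiz1. The names used here follow the titles and headers, and the vector genes given below go with the titles. Whether the 3 libraries of a group are separate cultures or transductions is not stated in the labels, so p-values measure only the spread between these samples, which may be technical. All libraries come from 1 cell line, and Zmiz1 was expressed from a retroviral vector.

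Zmiz1 is a nuclear coactivator of the PIAS-like family, named for the SP-RING or MIZ zinc finger it shares with the PIAS SUMO ligases. It binds transcription factors, Notch1 among them, and is needed for early steps of T cell development. Notch1 signalling in thymocytes runs through the DNA-binding factor RBPJ and drives genes such as Myc, Il7r and Ptcra. The receptor that Il7r encodes signals through Jak kinases and Stat5 to keep T cell precursors alive.

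The promoters of 4 of the genes that rose are shown for reference, 2 of them because they held a searched motif. Each is the 250 bases before the gene's RefSeq start (GRCm38.p6), 5′ to 3′ on the gene's strand, and capitals mark TTCNNNGAA, the palindromic element that STAT factors recognise. Ccr8 lies at chr9:120092114-120094906 on the plus strand (GENCODE M21 on GRCm38, the same assembly as mm10), Gzma at chr13:113093825-113100981 on the minus strand, Sytl3 at chr17:6659093-6738044 on the plus strand and Il7r at chr15:9505788-9530176 on the minus strand. The RefSeq starts of Ccr8, Sytl3 and Il7r differ from these GENCODE starts. The Ccr8 window ends inside the GENCODE gene, and the Il7r window lies wholly inside it. For Sytl3 and Il7r the bases after the RefSeq start were not found in a sense GENCODE transcript. The printed windows are chr9:120091883-120092132 for Ccr8, chr13:113100982-113101231 for Gzma, chr17:6658809-6659058 for Sytl3 and chr15:9529877-9530126 for Il7r.
Ccr8: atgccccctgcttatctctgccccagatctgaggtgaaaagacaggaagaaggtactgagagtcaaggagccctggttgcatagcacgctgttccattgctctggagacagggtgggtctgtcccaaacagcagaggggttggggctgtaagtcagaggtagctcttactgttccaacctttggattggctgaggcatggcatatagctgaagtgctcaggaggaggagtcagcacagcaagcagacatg
Gzma: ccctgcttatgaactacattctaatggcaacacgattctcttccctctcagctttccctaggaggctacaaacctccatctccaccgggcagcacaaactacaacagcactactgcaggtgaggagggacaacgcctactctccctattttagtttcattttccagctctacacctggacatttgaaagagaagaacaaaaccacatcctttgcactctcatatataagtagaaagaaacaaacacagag
Sytl3: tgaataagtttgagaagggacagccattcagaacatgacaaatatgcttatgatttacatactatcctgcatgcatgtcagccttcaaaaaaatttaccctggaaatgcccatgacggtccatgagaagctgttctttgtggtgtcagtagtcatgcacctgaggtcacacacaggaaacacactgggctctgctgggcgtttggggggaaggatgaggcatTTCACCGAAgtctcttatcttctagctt
Il7r: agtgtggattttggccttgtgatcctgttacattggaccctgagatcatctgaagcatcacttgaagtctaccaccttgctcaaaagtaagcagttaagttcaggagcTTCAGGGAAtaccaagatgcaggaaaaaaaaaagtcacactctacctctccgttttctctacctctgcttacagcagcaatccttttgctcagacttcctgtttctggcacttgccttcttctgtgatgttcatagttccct

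The match in Sytl3 begins 28 bases before the RefSeq start and that in Il7r 142 bases before it. By the GENCODE start, the Il7r match lies inside the gene. TTCNNNGAA stood, on either strand, in 8.05% of the 87 promoters matched by symbol among the genes that rose, in 9.21% of the 76 matched among those that fell and in 5.87% of all 7892 matched promoters of tested genes. The RBPJ core TGGGAA stood in 18.4% of the promoters of genes that rose, in 19.7% of those that fell and in 19.7% of all. For the ETS core CCGGAA these shares were 18.4%, 18.4% and 26.3%, and for the MYC E-box CACGTG they were 8.05%, 1.32% and 8.92%. A match of letters in this window is a description of the sequence only.

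Over the 6 libraries FPKM summed to 550786 to 572048, with 14233 to 14516 genes detected above 0. Counts of reads are not part of the files. The spacing of low FPKM values gave a relative depth from 0.740 in Zmiz1-titled replicate 2 to 1.10. That replicate also correlated least with the rest (mean r over the other libraries 0.942, and up to 0.957 for another of the 6). Zmiz1-titled replicate 2 was the highest of its group in 70 of the 109 genes that rose and the lowest in 62 of the 105 that fell. Without this library in the fit, 237 genes were called. All 9 T cell markers were present, with a summed level of 5601 to 5790 FPKM in control and 4999 to 5722 FPKM in Zmiz1-titled libraries, and among them Cd3d and Lck fell. Of 6 B cell markers Ms4a1 was among those listed at 0, and the 6 summed to at most 0.512 FPKM. Of 5 NK cell markers Ncr1, Klrd1 and Klrk1 were listed at 0, and of 4 erythroid markers Hbb-b1 and Hba-a1 were among those at 0. The 7 myeloid markers summed to 98 to 102 FPKM in control and 91.6 to 100.3 FPKM in Zmiz1-titled libraries, nearly all of it from Itgam, and Elane was listed at 0. The 6 fibroblast markers summed to 1.5 to 1.70 FPKM in control and 0.953 to 1.27 FPKM in Zmiz1-titled libraries, with Col3a1 and Dcn listed at 0. In RNA from a whole sorted population, fewer cells expressing a gene and less RNA per cell cannot be told apart.

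The vector genes were read first. Zmiz1 stood at 0.180, 0.170 and 0.176 FPKM in the control libraries and at 70.3, 67.7 and 74.4 FPKM in the Zmiz1-titled libraries. It was near the control level in the Notch1-titled libraries, at 0.220, 0.221 and 0.194 FPKM, and at 47.6, 49.3 and 51.0 FPKM in the combined libraries. Notch1 stood at 1.91, 1.97 and 1.80 FPKM in control and 2.04, 1.92 and 2.34 FPKM in Zmiz1-titled libraries, so these groups overlap. In the Notch1-titled libraries Notch1 stood at 32.0, 42.2 and 22.1 FPKM. Ngfr, the gene of the NGFR reporter, stood at 82.8, 83.8 and 88.9 FPKM in control and at 7.35, 7.23 and 7.71 FPKM in Zmiz1-titled libraries. Reads from the vectors and from the cells' own copies cannot be told apart in these values.

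Between the Zmiz1-titled and the control libraries, 214 genes passed an adjusted p of 0.05 in limma, which is 2.11% of the 10152 tested. Of these, 109 rose (1.07% of genes tested) and 105 fell (1.03%). Counts of called list members below stand beside these shares, and the lists were chosen with earlier results of these data known. The sizes differed by direction: the mean FPKM at least doubled in 29 genes that rose and at least halved in 8 that fell. The median difference in log2(FPKM + 1) was 0.60 for genes that rose and 0.45 in size for genes that fell, against 0.00166 over all genes tested. Differences are on the log2(FPKM + 1) scale throughout, which understates the change of genes near or below 1 FPKM. In all 214 genes the 3 Zmiz1-titled libraries did not overlap the 3 control libraries, as they did not in 17.9% of all genes tested. At an unadjusted p under 0.05 there were 1300 genes, and since the smallest p of an exact permutation test with 3 libraries a side is 0.1, the calls rest on the pooled variance of limma.

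The calls depended on which libraries were in the fit. A call held without each of the 12 libraries in turn for 42 of the genes that rose and 26 that fell. Without control replicate 1, 2 or 3, the count of called genes was 106, 81 or 74. With only the 6 libraries compared in the fit, 49 genes passed, 48 of them among the 214. Among the genes named below, those 48 include Zmiz1, Ccr8, Wfs1, Gzma, Prkaa2, Ppap2b, Sytl3, Etv5, Il7r, Tmem158, Itm2a, Osr2, Tmem151b, Il17rb, Slit1, Fam105a and Il12rb2 among the genes that rose, and Ngfr, Gpr56, H2-Oa, Gsta4, Nsg2, Tmem45a, Prr5, Ccl27a, D8Ertd82e, Ccr7, Plac8, Ampd1, Trim26 and Bmf among those that fell. Of the 77 called genes that the naming rule picks, 45 did not pass in that smaller fit. Below, where leaving out 1 library ended a gene's call, this is said beside the gene.

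**Figure D1:**
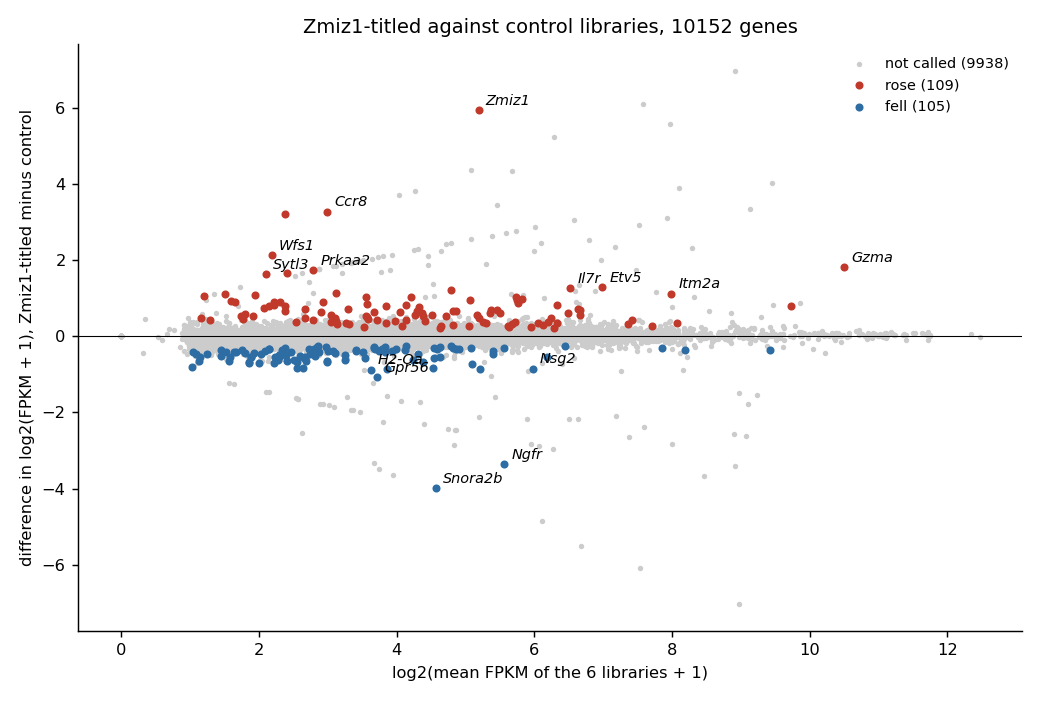
Each point is 1 of 10152 genes, with the log2 of the mean FPKM of the 6 libraries plus 1 on the horizontal axis and the difference in log2(FPKM + 1), Zmiz1-titled minus control, on the vertical axis. Red points are the 109 genes that rose and blue points the 105 that fell, and the grey points far from 0 were not called.

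The largest rise outside the vector was in a chemokine receptor gene. Ccr8, the receptor for the chemokine CCL1, stood at 0.407, 0.427 and 0.599 FPKM in control libraries and at 13.7, 15.1 and 11.3 FPKM in Zmiz1-titled libraries, a 27.9-fold ratio of means (difference 3.27 ± 0.11 SE, limma adjusted p = 4.14e-08). It was under 1 FPKM in each control library and above 10 FPKM in each Zmiz1-titled library. Zmiz1, Ccr8, Wfs1 and Osr2 averaged under 1 FPKM in both groups without Zmiz1 and passed the filter through the groups that carried it. The adjusted p-values of these genes, in any fit given here, are therefore a description and give no support for their rise. Ccr9, the receptor that guides T cells to gut and thymus, stood at 3.96, 3.86 and 3.55 FPKM against 6.56, 8.67 and 5.61 FPKM (difference 0.71, limma adjusted p = 0.0111). Its call was lost without control replicate 2 (0.050) or 3 (0.0625). Ccr7, which guides T cells to lymph nodes, fell: 6.62, 5.98 and 6.17 FPKM in control against 3.64, 3.63 and 3.34 FPKM in Zmiz1-titled libraries (difference -0.68, limma adjusted p = 0.000299). The groups did not overlap in any of these receptors, as in every called gene and in 17.9% of all genes tested. Of the 8 chemokine and sphingosine phosphate receptors tested, these were the called members, 2 that rose and 1 that fell. The share called was 37.5%, against 2.11% of all genes tested, and the median difference of the list was 0.05. Ccr4 stood at 15.9, 14.8 and 14.8 FPKM against 15.4, 41.4 and 13.0 FPKM, so its higher mean came from Zmiz1-titled replicate 2 (limma adjusted p = 0.666), and without it the difference was -0.09.

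One chemokine receptor gene under the filter showed the same kind of difference. Cx3cr1, the fractalkine receptor gene of cytotoxic and other migrating leukocytes, stood at 0.0863, 0.0411 and 0.111 FPKM in control and 1.55, 1.72 and 1.39 FPKM in Zmiz1-titled libraries. In a fit without the filter the difference was 1.24 (limma adjusted p = 3.52e-07). The call held without each of the 6 libraries in turn (highest adjusted p 1.14e-05). Cx3cr1 lies at chr9:119901616-120069879 (mm10), close to Ccr8, and whether the neighbours respond independently was not tested. Ccl27a, a chemokine gene, was the strongest by ratio among the named genes that fell, apart from Ngfr: 1.71, 1.60 and 1.49 FPKM against 0.585, 0.335 and 0.540 FPKM, 3.28-fold lower (difference -0.81, limma adjusted p = 0.00713).

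Genes of the cytotoxic granule and its exocytosis went both ways. Gzma, which encodes the granule protease granzyme A, stood at 635, 686 and 611 FPKM in control and 2379, 2120 and 2262 FPKM in Zmiz1-titled libraries (difference 1.81 ± 0.08 SE, limma adjusted p = 5.3e-07). Sytl3 and Sytl2 encode synaptotagmin-like proteins that tether Rab27-bearing granules for release. Sytl3 stood at 0.974, 1.20 and 1.10 FPKM against 5.07, 6.25 and 5.13 FPKM (difference 1.63 ± 0.09 SE, limma adjusted p = 2.79e-06). Sytl2 stood at 4.05, 4.45 and 4.66 FPKM against 9.05, 14 and 9.71 FPKM (difference 1.12 ± 0.13 SE, limma adjusted p = 0.0013). In all 3 genes each Zmiz1-titled library was above every control library, as in every called gene that rose. Ctsw, which encodes a cathepsin of cytotoxic lymphocytes, fell: 4.36, 4.66 and 5.17 FPKM against 1.87, 2.79 and 3.05 FPKM (difference -0.70, limma adjusted p = 0.0144). Its call was lost without control replicate 2 (0.0619) or 3 (0.0827). Prf1, which encodes the pore-forming protein perforin, stood at 1.88, 2.05 and 1.96 FPKM against 1.54, 1.26 and 1.53 FPKM and was not called (limma adjusted p = 0.15). Of the 14 granule genes tested, 3 rose and 1 fell (28.6% called, against 2.11% of all genes tested). The list's median difference was -0.12. Only 4 of the 14 were higher, and at an unadjusted p under 0.05 there were 3 higher and 5 lower. By library, the list's median above the control mean was 0.04, -0.28 and -0.08 in Zmiz1-titled replicates 1, 2 and 3, so the lower median came mostly from replicate 2.

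Cytokine receptor genes were called in both directions. Il7r stood at 55.5, 53.1 and 50.3 FPKM in control and 129, 140 and 117 FPKM in Zmiz1-titled libraries, 2.43-fold higher (difference 1.26 ± 0.08 SE, limma adjusted p = 1.01e-05). Il12rb2, which encodes a chain of the interleukin 12 receptor, stood at 28.8, 30 and 30.3 FPKM against 42.3, 39.7 and 43.6 FPKM (difference 0.48 ± 0.05 SE, limma adjusted p = 0.000955). The spread within each group was small beside these differences. Il4ra, the interleukin 4 receptor chain, stood at 1.96, 2.01 and 2.26 FPKM against 2.96, 3.96 and 3.55 FPKM (difference 0.54, limma adjusted p = 0.0192), a call that held in 8 of the 12 fits without 1 library and reached 0.090 in the others. Ifngr1, the ligand-binding chain of the interferon gamma receptor, fell from 327, 329 and 322 FPKM to 266, 233 and 260 FPKM (difference -0.37, limma adjusted p = 0.0111), and the call was lost without control replicate 2 (0.0618) or 3 (0.0549). Of 24 cytokine receptor and Jak-Stat genes tested, these 3 rose and 1 fell, with a list median of -0.05. The share called in this list was 16.7%, against 2.11% of all genes tested. Il17rb, the receptor for interleukin 25, was not in that list and stood at 34.7, 38.3 and 38.2 FPKM against 75.8, 63.4 and 83.5 FPKM, 2.00-fold higher (difference 0.97, limma adjusted p = 0.000331).

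None of the 10 tested Stat5 feedback and target genes was called by limma, while 3 were higher and 1 lower at an unadjusted p under 0.05, and their median difference was 0.06. The member furthest from 0 upward was Ccnd3, a D cyclin, at 533, 516 and 531 FPKM against 582, 658 and 592 FPKM (limma adjusted p = 0.107).

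**Figure D2:**
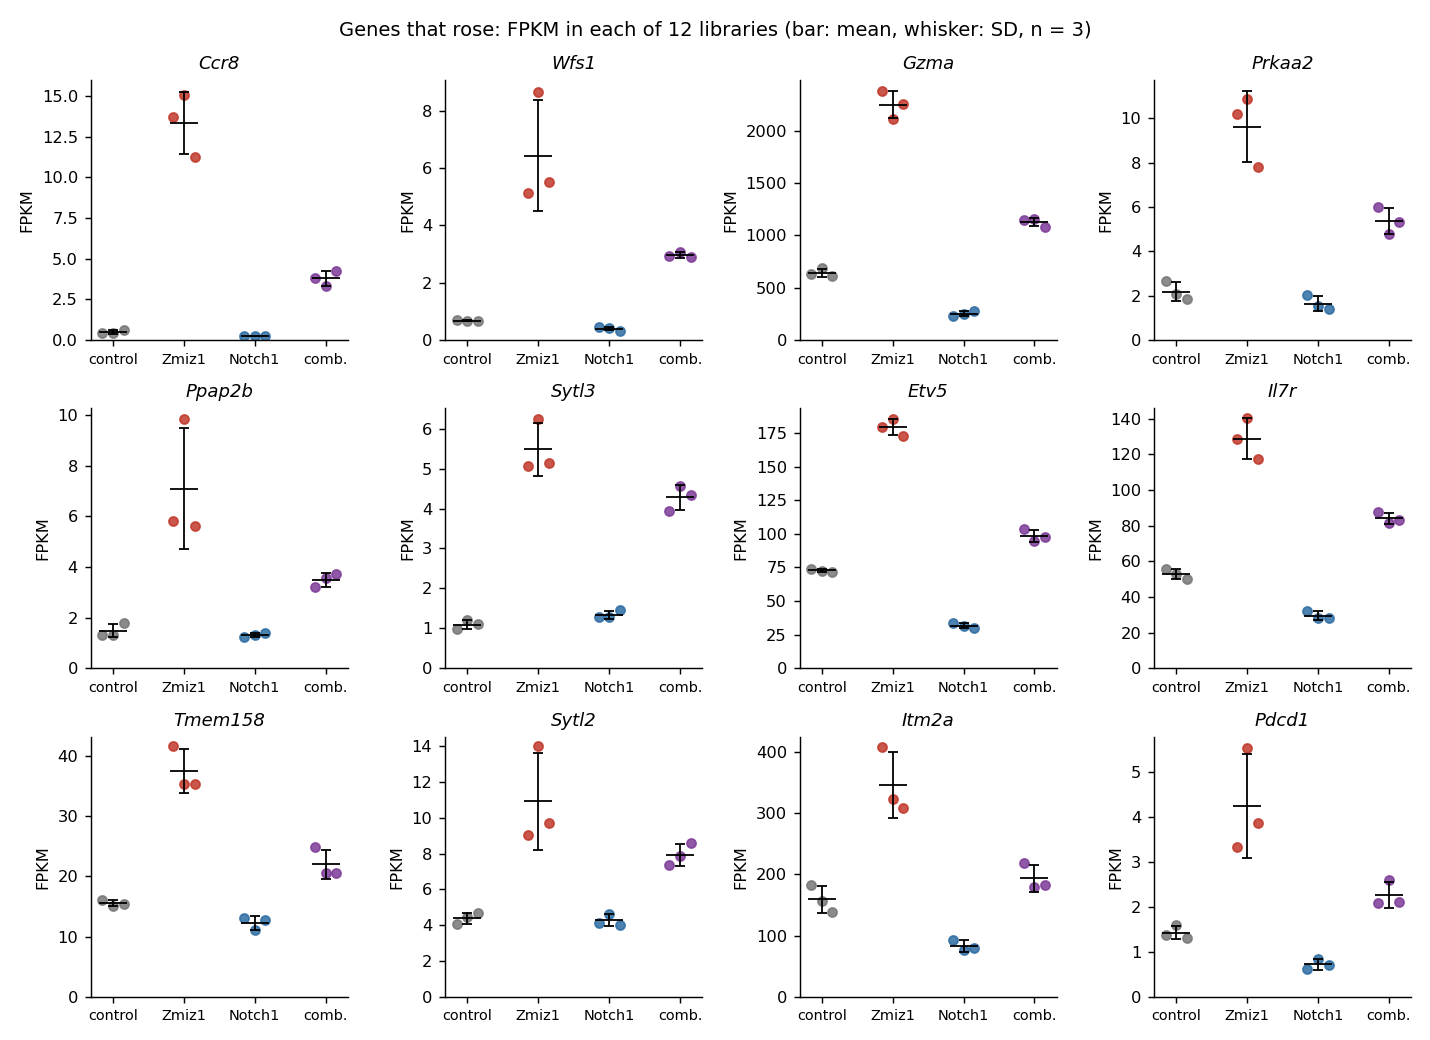
FPKM of 12 genes that rose, on linear axes from 0, in the 3 control, 3 Zmiz1-titled, 3 Notch1-titled and 3 combined libraries (points), with the mean and SD of each group of 3. In each gene the 3 Zmiz1-titled points lie above the 3 control points.

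Of the transcription factor lists, ETS factors and E protein and Id genes each held 1 gene that rose. Etv5, an ETS factor of the PEA3 subfamily, stood at 74.1, 72.5 and 71.9 FPKM in control and 180, 185 and 173 FPKM in Zmiz1-titled libraries, 2.46-fold higher (difference 1.29 ± 0.06 SE, limma adjusted p = 5.3e-07). It was the one of 14 tested ETS genes that was called, and the median of the list was 0.09. Etv5 is also known as a gene that ERK signalling induces, and whether that bears on its rise here was not tested. Of the 13 tested ERK feedback genes none was called and none passed an unadjusted p of 0.05. In that list Zmiz1-titled replicate 2 stood apart from the other two: Jun was at 5.93, 0.859 and 5.51 FPKM in the 3 Zmiz1-titled libraries against 2.27, 2.18 and 2.61 FPKM in control (limma adjusted p = 0.739). Dusp1 showed the same order, at 14, 6.67 and 13.8 FPKM against 8.22, 8.16 and 8.53 FPKM (limma adjusted p = 0.517). Without that library, 3 members of the list rose, Jun (difference 1.01, limma adjusted p = 0.000192) and Dusp1 (0.68, adjusted p = 0.000304) among them.

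Osr2, a zinc finger factor gene, stood at 0.585, 0.539 and 0.379 FPKM against 2.18, 1.93 and 2.20 FPKM, 4.20-fold higher (difference 1.05, limma adjusted p = 0.000331). Gata3, a master regulator of T cell fate, stood at 78.2, 71.1 and 70.2 FPKM against 114, 152 and 102 FPKM (difference 0.72, limma adjusted p = 0.015), and its call was lost without control replicate 2 (0.0746) or 3 (0.0822). Id1, an inhibitor of the E protein factors, stood at 2.73, 3.28 and 3.10 FPKM against 4.94, 5.90 and 5.23 FPKM (difference 0.65, limma adjusted p = 0.0291). The Id1 call held in 5 of the 12 fits without 1 library, with adjusted p up to 0.117. Among 7 tested E protein and Id genes Id1 was the called member. Nfkbie, an inhibitor of NF-kB, stood at 20.1, 22.9 and 21.7 FPKM against 34.9, 56.4 and 39.8 FPKM (difference 0.96, limma adjusted p = 0.00687). It was the 1 called gene of 17 NF-kB subunits and inhibitors.

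Known Notch target genes were tested as a list because the study's question joins Zmiz1 to Notch1. Of 9 tested, Il7r and Gata3 rose, none fell, and the median was 0.10, which is the difference of Notch1, a vector gene. Il7r was not raised by the Notch1 mutant here: it averaged 53 FPKM in control and 29.6 FPKM in Notch1-titled libraries. Myc stood at 0.0828, 0.106 and 0.0274 FPKM in control and at 0.285, 0.610 and 0.499 FPKM in Zmiz1-titled libraries. These groups do not overlap, as in 17.9% of all genes tested, and the difference of 0.44 missed the threshold (limma adjusted p = 0.0511). Myc was under 1 FPKM in each of the 6 libraries and passed the filter through its level in the combined libraries, which averaged 6.51 FPKM. Its adjusted p ran over the alternative fits from 0.00923 at a pseudocount of 0.1 to 0.902 with quantile normalization. It was 0.148 with only the 6 libraries in the fit, 0.0191 with Zmiz1-titled replicate 1 left out, and 0.128, 0.135 and 0.206 with control replicate 1, 2 or 3 left out. Ptcra, the gene of the pre-T cell receptor alpha chain, stood at 0.379, 0.645 and 0.640 FPKM against 0.286, 0.602 and 0.466 FPKM, with overlapping groups (difference -0.10, limma adjusted p = 0.793). Dtx1, Nrarp and Notch3 lay under the filter at no more than 0.274 FPKM in any of the 6 libraries, and Hes1 was listed at 0. Il2ra, also under the filter, stood at 0.286, 0.295 and 0.256 FPKM against 0.415, 0.588 and 0.336 FPKM (limma adjusted p = 0.254 without the filter). Lef1, a T cell factor, stood at 56.0, 58.5 and 60.2 FPKM against 56.3, 55.7 and 63.7 FPKM (difference 0.01, with a sign that changed between fits).

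T cell identity genes were called in both directions, with more falls than rises. Cd7, a surface glycoprotein of T cells and their precursors, fell from 46.0, 48.4 and 45.2 FPKM to 27.0, 20.4 and 29.2 FPKM (difference -0.86, limma adjusted p = 0.00279). Lck, the kinase that starts T cell receptor signalling, fell from 746, 801 and 762 FPKM to 614, 551 and 644 FPKM (difference -0.35, limma adjusted p = 0.0274). Cd3d, a chain of the receptor complex, fell from 259, 268 and 240 FPKM to 218, 199 and 204 FPKM (difference -0.30, limma adjusted p = 0.0366). Cd6, a receptor for ALCAM, fell from 14.6, 17.2 and 17.5 FPKM to 11.4, 12.2 and 13.1 FPKM (difference -0.40, limma adjusted p = 0.0418). The calls of Lck, Cd3d and Cd6 were weak: they held in 6, 4 and 2 of the 12 fits without 1 library, with adjusted p up to 0.136, 0.176 and 0.200. Of 35 T cell identity genes tested, 1 rose (Gata3) and 4 fell (Cd7, Lck, Cd3d, Cd6), and the median was -0.08. The share called was 14.3%, against 2.11% of all genes tested. Rag1, a recombinase gene of immature lymphocytes, stood at 393, 349 and 342 FPKM against 509, 751 and 442 FPKM and was not called (limma adjusted p = 0.14).

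Itm2a and Pdcd1, named for the size of their difference and members of no list described here, rose. Itm2a, a membrane protein gene of activated thymocytes, stood at 183, 156 and 139 FPKM against 408, 323 and 308 FPKM, 2.17-fold higher (difference 1.11 ± 0.14 SE, limma adjusted p = 0.00168). Pdcd1, the gene of the inhibitory receptor PD-1, stood at 1.38, 1.60 and 1.30 FPKM against 3.34, 5.54 and 3.86 FPKM, 2.97-fold higher (difference 1.09 ± 0.14 SE, limma adjusted p = 0.00224). Neither gene's groups overlap, as in every called gene. Cd274, which encodes the PD-1 ligand and was picked out after its values had been seen, stood at 7.96, 7.59 and 7.67 FPKM against 10.8, 9.16 and 10.1 FPKM (difference 0.33, limma adjusted p = 0.0339), a call that held in 4 of the 12 fits without 1 library and reached 0.153. Gpr174, a G protein-coupled receptor gene of lymphocytes, stood at 3.24, 2.08 and 2.03 FPKM against 6.98, 4.29 and 5.15 FPKM (difference 0.90, limma adjusted p = 0.0286), a call that held in 7 of the 12 fits without 1 library and reached 0.135.

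Of 5 tested class II antigen presentation genes, 3 fell (60% called, against 2.11% of all genes tested). H2-Oa, a chain of the class II chaperone H2-O, fell from 15, 14.6 and 15.1 FPKM to 7.32, 6.74 and 9.10 FPKM (difference -0.88, limma adjusted p = 0.00201). H2-DMb1, a chain of the peptide-exchange factor H2-M, fell from 3.29, 3.39 and 3.58 FPKM to 2.02, 1.24 and 2.22 FPKM (difference -0.66, limma adjusted p = 0.0274). H2-Eb2, a class II beta chain gene, fell from 3.70, 3.19 and 3.25 FPKM to 2.15, 2.47 and 1.99 FPKM (difference -0.45, limma adjusted p = 0.020). All 5 tested were lower, with a median of -0.60. By library, the list's median relative to the control mean was -0.47, -0.94 and -0.51 in Zmiz1-titled replicates 1, 2 and 3. It was also below 0 in the Notch1-titled libraries, which carry no Zmiz1 vector, at -0.57, -0.48 and -0.29. Members of the list under the filter went either way, among them H2-Eb1 (0.03), H2-Ob (0.05) and H2-Ab1 (-0.06), none of them called. All 3 lie on chromosome 17, H2-Oa at chr17:34092340-34095234, H2-DMb1 at chr17:34153072-34160230 and H2-Eb2 at chr17:34325665-34341412, all on the plus strand (mm10). Without any 1 of the 3 control libraries, or with only the 6 libraries in the fit, H2-Oa alone of the 5 passed. H2-DMb1 then reached adjusted p = 0.0784, 0.107 and 0.124 without control replicates 1, 2 and 3, and H2-Eb2 up to 0.0788, with a call held in 7 of the 12 fits without 1 library. Among 23 class I and loading genes, the nonclassical genes H2-T3 (difference -0.57) and H2-T22 (-0.45) fell and none rose, with a median of -0.09. Their calls held in 2 and 1 of the 12 fits without 1 library. Both belong to a family of near-identical copies, so reads could have been split between them.

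Interferon response genes were lower in 10 of 11 tested, with a median of -0.12, but limma called none, and 2 passed an unadjusted p of 0.05. Bst2, which encodes tetherin, stood at 26.0, 28.4 and 26.8 FPKM against 18.6, 18.1 and 18.9 FPKM (difference -0.52, limma adjusted p = 0.0916). Its groups did not overlap, as in 17.9% of all genes tested. Bst2 passed with only the 6 libraries in the fit (0.033) and without Notch1-titled replicate 3 (0.013). Of 7 Schlafen genes, a family of growth and interferon-linked proteins in lymphocytes, 2 fell (28.6% called, against 2.11% of all genes tested). Slfn2 went from 26.4, 30.5 and 28.7 FPKM to 16.8, 12.9 and 17.2 FPKM (difference -0.83, limma adjusted p = 0.00224). Slfn5 went from 2.28, 2.59 and 2.79 FPKM to 1.90, 1.5 and 1.65 FPKM (difference -0.40, limma adjusted p = 0.0328), a call held in 6 of the 12 fits without 1 library. These genes also have close copies.

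Gpr56 and Nsg2 fell with little spread between libraries. Gpr56, which encodes an adhesion receptor found on cytotoxic lymphocytes and progenitors, fell from 16.6, 16.9 and 16.9 FPKM to 6.97, 7.46 and 7.76 FPKM (difference -1.08 ± 0.06 SE, limma adjusted p = 2.15e-06). Nsg2, an endosomal protein gene best known from neurons, fell from 81.0, 81.0 and 78.3 FPKM to 44.7, 43.8 and 43.6 FPKM (difference -0.85 ± 0.05 SE, limma adjusted p = 2.79e-06). Within each group of 3 the values of both genes lay close together. The short RNA Snora2b had a larger fitted difference, but FPKM is imprecise for transcripts that short. Plac8, a small cysteine-rich protein gene, fell from 25.2, 25.7 and 22.8 FPKM to 14.8, 15.2 and 14.9 FPKM (difference -0.68, limma adjusted p = 0.000331). Tmem45a, a transmembrane protein gene, fell from 7.22, 6.19 and 6.21 FPKM to 3.64, 3.22 and 2.81 FPKM (difference -0.84, limma adjusted p = 0.00123). Of 18 integrin and adhesion genes, Actn2 and Vim rose and Gpr56 fell. Actn2, an alpha-actinin gene, stood at 48.5, 59.3 and 63.0 FPKM against 89.7, 96.1 and 118 FPKM (difference 0.82, limma adjusted p = 0.0158). Leaving out control replicate 1 (0.0657), control replicate 2 (0.0614) or Zmiz1-titled replicate 3 (0.0515) ended the Actn2 call. Vim, the gene of the intermediate filament vimentin, had a difference of 0.37 (limma adjusted p = 0.0146), lost without control replicate 1 (0.0664), 2 (0.0521) or 3 (0.0625).

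**Figure D3:**
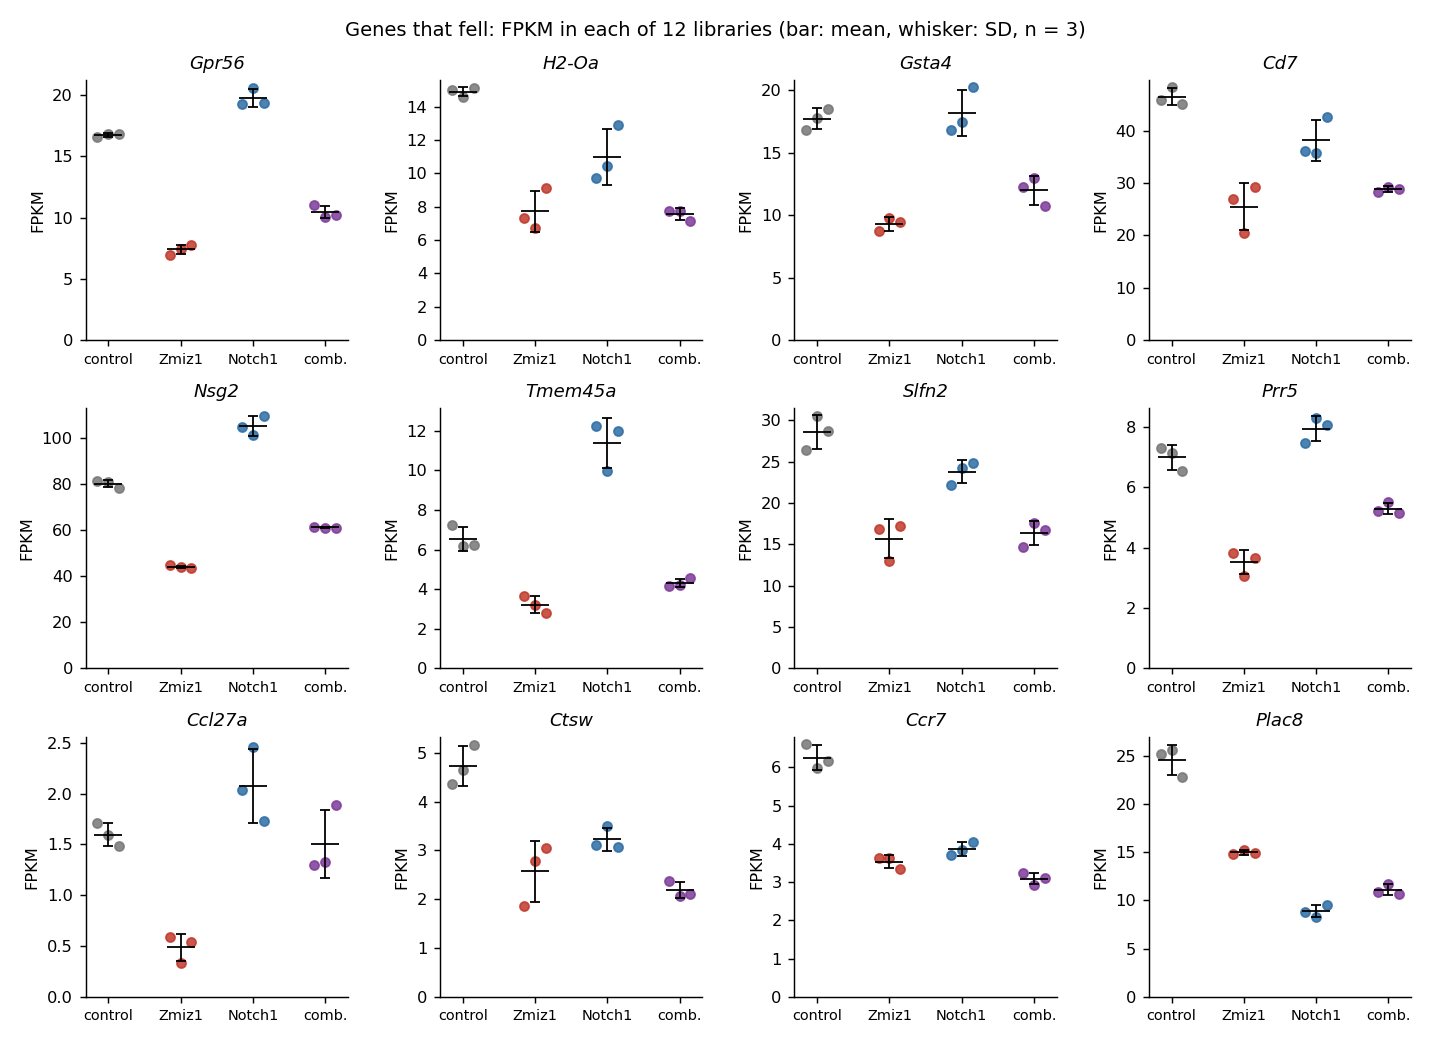
FPKM of 12 genes that fell, on linear axes from 0, in the 3 libraries of each of the 4 groups (points), with the mean and SD of each group of 3. In each gene the 3 Zmiz1-titled points lie below the 3 control points.

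Metabolic and stress pathways held single members that rose strongly beside members that did not. Wfs1, which encodes the endoplasmic reticulum protein wolframin, stood at 0.682, 0.673 and 0.643 FPKM in control and 5.13, 8.67 and 5.50 FPKM in Zmiz1-titled libraries, 9.66-fold higher (difference 2.13 ± 0.14 SE, limma adjusted p = 1.77e-05). It was the 1 called gene of 25 endoplasmic reticulum folding and stress genes, whose median was 0.01. Prkaa2, the alpha 2 catalytic subunit of the energy sensor AMPK, stood at 2.65, 2.06 and 1.83 FPKM against 10.2, 10.9 and 7.81 FPKM, 4.42-fold higher (difference 1.74 ± 0.14 SE, limma adjusted p = 9.07e-05). Its paralog Prkaa1 stood at 12.8, 10.1 and 10.0 FPKM against 11.1, 12.7 and 9.59 FPKM with overlapping groups (difference 0.02, and -0.07 without Zmiz1-titled replicate 2). Prkaa2 was the called member of 12 AMPK genes. Ppap2b, a lipid phosphatase gene, stood at 1.33, 1.33 and 1.79 FPKM against 5.83, 9.83 and 5.60 FPKM, 4.78-fold higher (difference 1.67 ± 0.16 SE, limma adjusted p = 0.000369). Ppap2b (chr4:105157347-105232764, mm10) lies close to Prkaa2 (chr4:105029874-105109890), and whether they respond independently was not tested. Zmiz1-titled replicate 2 was the highest library in all 3 of Wfs1, Prkaa2 and Ppap2b, and the other libraries of the group were also above every control library.

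In the PI3K and mTOR pathway, 26 genes were tested, with a median of 0.03. Prr5, a component of mTOR complex 2, fell from 7.31, 7.15 and 6.53 FPKM to 3.81, 3.07 and 3.66 FPKM (difference -0.83, limma adjusted p = 0.000272). The Zmiz1-titled libraries of Prr5 were all below the control libraries, as in every called gene that fell. Under the filter Pik3cb, a PI3K catalytic subunit gene, stood at 0.584, 0.555 and 0.639 FPKM against 0.914, 0.797 and 0.769 FPKM (limma adjusted p = 0.0464 without the filter), and it missed the threshold without any 1 of the 6 libraries, up to 0.166.

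Gsta4, a glutathione transferase that detoxifies lipid peroxidation products, fell from 16.9, 17.8 and 18.5 FPKM to 8.71, 9.79 and 9.42 FPKM (difference -0.86, limma adjusted p = 0.000378), the 1 called gene of 24 in the glutathione and oxidant defence list (median -0.07). Ampd1, a muscle-type AMP deaminase gene, fell from 1.64, 1.66 and 1.71 FPKM to 0.601, 0.805 and 0.747 FPKM, 2.32-fold lower (difference -0.64, limma adjusted p = 0.00123). Its level in the Zmiz1-titled libraries was under 1 FPKM. None of 19 glycolysis genes (median -0.09) or 18 amino acid stress and one-carbon genes (median 0.15) was called by limma. At an unadjusted p under 0.05 these lists held 0 higher and 1 lower, and 8 higher and 1 lower. Slc7a11, the cystine transporter gene, stood at 19.3, 16.2 and 15.3 FPKM against 28.1, 23.2 and 22.2 FPKM (difference 0.51, limma adjusted p = 0.153).

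Proliferation genes lay slightly higher with almost no calls. Of all genes tested, 50.5% were higher in the Zmiz1-titled libraries. Of 40 DNA replication genes, 36 were higher, with a median of 0.11, and E2f2, an E2F factor that drives S phase genes, rose from 142, 144 and 148 FPKM to 168, 205 and 176 FPKM (difference 0.33, limma adjusted p = 0.0406). The E2f2 call held in 3 of the 12 fits without 1 library, with adjusted p up to 0.153. Of 38 mitosis genes, 37 were higher, with a median of 0.17, and limma called none, while 13 were higher at an unadjusted p under 0.05. By library, the median of the mitosis list above the control mean was 0.09, 0.24 and 0.17 in the Zmiz1-titled libraries, against -0.06, 0.00064 and 0.06 in the control libraries. Plk1, a mitotic kinase gene, stood at 65.8, 60.7 and 64.6 FPKM against 68.6, 116 and 67.5 FPKM, so that its difference came mainly from Zmiz1-titled replicate 2. Prc1, a spindle midzone gene, stood at 73.4, 79.6 and 83.4 FPKM against 90.6, 123 and 97.5 FPKM (limma adjusted p = 0.108). No gene was called among 12 D cyclins and CDK inhibitors (4 higher at an unadjusted p under 0.05), 17 p53 response genes (1 higher) or 30 MYC targets of ribosome and nucleotide synthesis (1 higher), and the medians were 0.10, 0.04 and 0.03. Of 10 Bcl2 family genes, Bmf, a pro-apoptotic BH3-only gene, fell from 1.37, 1.45 and 1.62 FPKM to 0.764, 0.734 and 0.835 FPKM (difference -0.48, limma adjusted p = 0.0186), a call lost without control replicate 2 (0.0672) or 3 (0.1).

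Among the relatives and partners of Zmiz1, the 20 tested PIAS and SUMO genes held no call besides Zmiz1 itself. Sumo3, a SUMO protein gene, stood at 55.0, 49.7 and 48.1 FPKM against 64.7, 73.9 and 57.1 FPKM (difference 0.35, limma adjusted p = 0.111), and passed without Zmiz1-titled replicate 3 (0.0434). Zmiz2, the paralog, stood at 24.5, 27.6 and 28.3 FPKM against 23.8, 24.8 and 26.3 FPKM, with overlapping groups (difference -0.10). Of 20 tested genes of the BAF chromatin remodelling complex, limma called none, and 1 was higher and 1 lower at an unadjusted p under 0.05. None of the 16 tested TGF-beta and Smad genes was called either, with 3 higher and 1 lower at an unadjusted p under 0.05 and a median of 0.12. Tgfb3, a ligand gene under the filter, stood at 0.404, 0.365 and 0.302 FPKM against 0.794, 0.985 and 0.874 FPKM (difference 0.47 without the filter, limma adjusted p = 0.000677), and it passed without each of the 6 libraries.

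**Figure D4:**
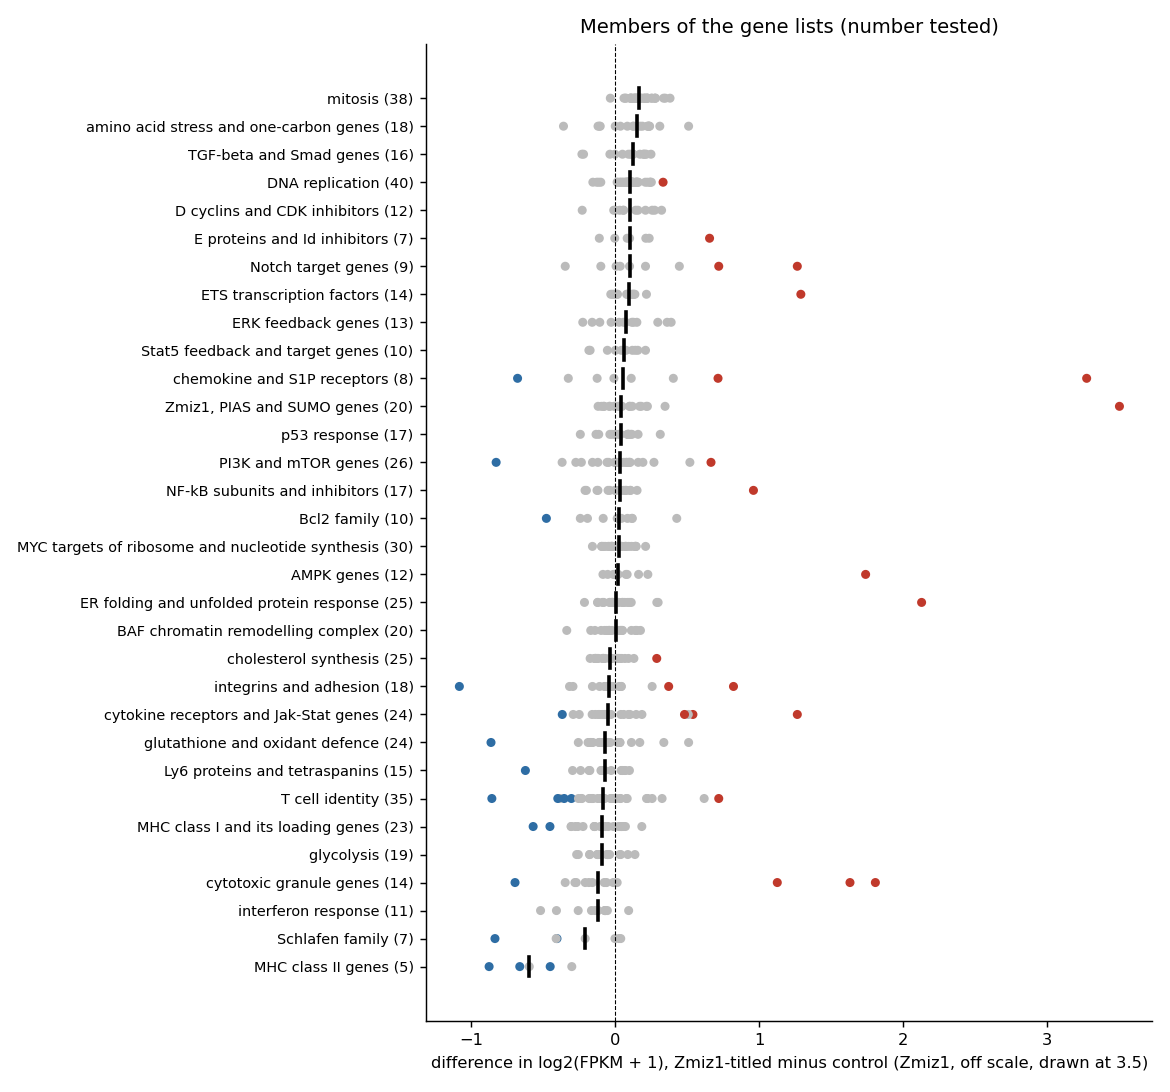
Each row is a gene list with the number of tested members, each point the difference in log2(FPKM + 1), Zmiz1-titled minus control, of 1 member (red rose, blue fell, grey not called; Zmiz1 itself drawn at 3.5), and each black bar the list median. The 5 class II genes all lie below 0, while most list medians lie near the dashed line at the median of all genes tested, 0.00166.

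The remaining named genes that rose belonged to no list. Tmem151b was among the steadiest: 34.8, 32.4 and 34.2 FPKM in control against 70.4, 70.6 and 70.2 FPKM in Zmiz1-titled libraries (difference 1.04, limma adjusted p = 1.23e-05). Tmem158, a Ras-induced membrane protein gene, stood at 16.2, 15.1 and 15.4 FPKM against 41.7, 35.3 and 35.4 FPKM (difference 1.21, limma adjusted p = 6.48e-05). St3gal2, a sialyltransferase gene, stood at 6.59, 6.6 and 6.59 FPKM against 16.8, 11.4 and 16.2 FPKM (difference 1.04, limma adjusted p = 0.00149). In these genes the lowest Zmiz1-titled library was well above the highest control library. Slit1, which encodes a guidance ligand of Robo receptors, rose (1.01, 1.27 and 1.25 FPKM against 3.37, 2.52 and 3.41 FPKM, limma adjusted p = 0.00136) while its relative Slit3 fell (4.41, 5.19 and 4.95 FPKM against 2.42, 3.07 and 2.89 FPKM, limma adjusted p = 0.00716). Cdc42ep3, Ahnak, Fam105a, Kctd12 and Eci3 rose by 0.96, 0.92, 0.87, 0.84 and 0.81, and each call held without each of the 12 libraries. Cdc42ep3 encodes an effector of the GTPase Cdc42, Ahnak a very large scaffold protein and Eci3 an enzyme of fatty acid oxidation. Stc1, a glycoprotein hormone gene, stood at 0.710, 0.721 and 0.797 FPKM against 2.11, 4.73 and 1.98 FPKM (limma adjusted p = 0.021), lost without control replicate 1 (0.0782), 2 (0.0917) or 3 (0.0879). Npffr1 and Dapl1 rose by 0.91 and 0.90 with calls held in 7 of 12 fits without 1 library (adjusted p up to 0.1 and 0.123). Insl5, a relaxin-family peptide gene, rose by 0.82 with a call lost without control replicate 3 (0.0512).

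Among the other named genes that fell, D8Ertd82e, Sestd1, Kcnh2, Sqrdl and Agpat9 fell by 0.71, 0.66, 0.65, 0.62 and 0.57, and each call held without each of the 12 libraries. Sqrdl encodes a mitochondrial sulfide oxidase, Kcnh2 a potassium channel and Agpat9 a glycerolipid synthesis enzyme. Trim26 fell by 0.65, with 2.41, 2.69 and 2.78 FPKM against 1.12, 1.5 and 1.31 FPKM, and its call was lost without control replicate 2 (0.0614) or 3 (0.0667). Ms4a6c fell by 0.69 (lost without control replicate 1, 0.0538, or 2, 0.0854), Mtus2 by 0.62 (control replicate 2, 0.0593, or 3, 0.0747) and Matk, a Csk-like kinase gene, by 0.55 (control replicate 2, 0.0622, or 3, 0.0713). Tspan13 was the called member of 15 Ly6 and tetraspanin genes, whose median was -0.07. Scrn1, Alox5ap, Tspan13 and Slc27a1 fell by 0.66, 0.56, 0.62 and 0.66, with calls that held in 8, 8, 3 and 2 of the 12 fits without 1 library. 

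The pattern of Ccr8 over all 12 libraries was most like those of Wfs1, Prkaa2, Ppap2b, Ctsl and Tmem158, with Pearson correlations of log2(FPKM + 1) of 0.987, 0.981, 0.980, 0.978 and 0.972. Ctsl encodes a lysosomal cathepsin and stood at 679, 598 and 595 FPKM in control against 1106, 1138 and 979 FPKM in Zmiz1-titled libraries (difference 0.78, limma adjusted p = 0.000369). These correlations describe 12 libraries that share their groups and carry no test.

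The same Zmiz1 vector was also introduced beside the Notch1 mutant. The Notch1-titled and combined libraries were not part of the difference above, but they entered the filter and the pooled variance behind its calls. Zmiz1 and Ngfr, both vector genes, are counted among the 214. In the combined libraries less the Notch1-titled libraries, 108 of the 109 genes that rose with Zmiz1 alone were also higher (99.1%, against 49.6% of all genes tested), and 103 of the 105 that fell were also lower (98.1%, against 50.2%). Passing limma's threshold there in the same direction were 59 of the 109, which is 54.1% of them and 70.2% of the 84 genes that rose in that comparison (0.827% of genes tested). For the genes that fell the count was 32 of 105, which is 30.5% of them and 46.4% of the 69 genes that fell there (0.680% of genes tested). The sizes were smaller beside the Notch1 mutant in 84 of the 109 and in 90 of the 105. The median difference was 0.47 beside the mutant against 0.60 without it for the genes that rose, and -0.30 against -0.45 for those that fell. The 214 genes were chosen by their difference without the mutant, and the part of that choice in the smaller sizes was not tested. Zmiz1 itself was lower in the combined libraries than in the Zmiz1-titled ones, and the part of this in the sizes was not tested.

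**Figure D5:**
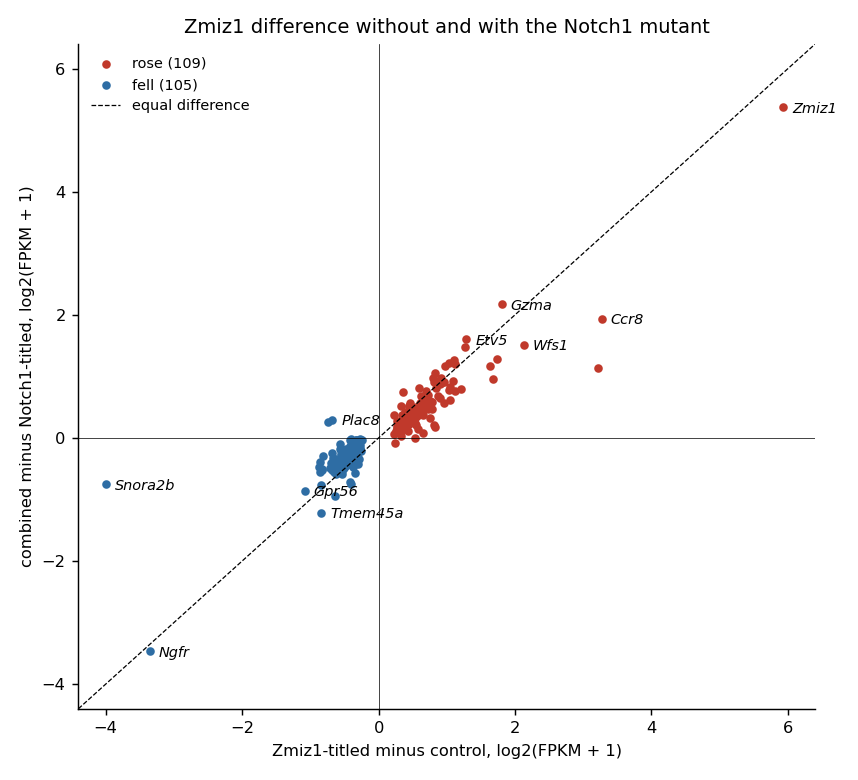
Each point is 1 of the 214 called genes, with the Zmiz1-titled minus control difference in log2(FPKM + 1) on the horizontal axis and the combined minus Notch1-titled difference on the vertical axis, and the dashed line marks equal differences. Most points have the same sign on both axes, and Plac8 lies above 0 on the vertical axis although it fell with Zmiz1 alone.

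The test of the difference between the pair of Zmiz1 contrasts called 7 genes in limma, 0.069% of those tested. Among the 214, these were Zmiz1 (-0.56, adjusted p = 0.0266), Ccr8 (-1.33, adjusted p = 0.00735) and Plac8 (0.98, adjusted p = 0.00194). Zmiz1 and Ccr8 passed the filter through the groups with the Zmiz1 vector, where they are high. Their tests therefore give no support for an interaction. The interaction of Plac8 passed in every alternative fit run. That of Ccr8 was lost at a pseudocount of 0.1 (0.535) and with quantile normalization (0.325), and that of Zmiz1 at a pseudocount of 0.1 (0.0622) and in 10 of the 12 fits without 1 library, at up to 0.131. Ccr8 averaged 0.243 FPKM in Notch1-titled and 3.78 FPKM in combined libraries, so that it was also higher with Zmiz1 there, by 1.94. Plac8 averaged 8.86 FPKM in Notch1-titled and 11.1 FPKM in combined libraries, a difference of 0.30 that was not called (limma adjusted p = 0.0536). Gzma averaged 250 FPKM in Notch1-titled and 1127 FPKM in combined libraries, and Etv5 31.8 and 98.6 FPKM, differences of 2.17 and 1.60 against 1.81 and 1.29 without the mutant. Their interaction was not called. Tmem45a and Cd6 had larger falls beside the mutant (-1.22 and -0.75), again without a called interaction.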

How the data were processed

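Poly(A) RNA of 12 samples of the line 8946 was sequenced after TruSeq mRNA v2 preparation, which keeps no strand, so overlapping antisense transcripts cannot be told apart. The deposited unit is FPKM, 1 value per gene symbol and library, per the file headers. Per the submitters' processing notes, the build was mm10 and the tools were Cufflinks, Cuffdiff 2.1.1, Bowtie2 2.1.0.0, TopHat2 2.0.9 and FastQC 0.10.0; their order, settings and gene annotation are not given in the sources used here. Depth in reads is unknown.

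Groups follow titles and column headers. log2(FPKM + 1) was computed from the deposited values, and 1 limma model (version 3.58.1, R 4.3.3, moderated variances with an intensity trend) was fitted to 12 libraries and 4 group means for the 10152 genes averaging 1 FPKM or more. Tests are two-sided, p-values were adjusted over all genes (Benjamini-Hochberg), and the threshold was 0.05; "called", "rose" and "fell" refer to it. Genes below that level were tested by fitting every gene above 0. On simulated data for Zmiz1-titled against control (10152 genes, 200 changed, 10 runs), 69.0% of 1.5-fold and 93.4% of 2-fold changes were recovered and 4.4% of calls were false. The changed genes lay above about 2 FPKM in control, and noise was independent between libraries, with the same spread in each. Genes as low in control as Ccr8 and Wfs1, a noisier library and noise shared between libraries are thus not covered. Of the genes tested, 10003 had a position in GENCODE M21, matched by symbol.

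The genes compared and 38 gene lists were chosen with earlier results of these data known. Named genes are the vector genes and Notch targets, the 30 strongest rises and 30 strongest falls among called genes (predicted and short RNA genes passed over), called list members, the 2 members of each list furthest from 0 and the 5 genes most like Ccr8. Alternatives were another pseudocount (0.1), no filter, a filter at 5 FPKM, median ratio scaling, quantile normalization, a replicate block, the 2 groups alone, robust variances, no short RNA genes, and leaving out each library. Fits without the filter that leave out 1 library were added after the data had been seen. Some items are not reported here.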

Additional observations from a re-analysis of the deposited data

Results flagged for a closer look

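The difference of the Zmiz1 effect with and without the Notch1 mutant was tested for every gene, and 7 genes passed limma's adjusted threshold. All signs are the combined minus Notch1-titled difference less the Zmiz1-titled minus control difference. Ccr8 had an interaction of -1.33, Zmiz1 of -0.557 and Plac8 of 0.976. Ccr8 and Zmiz1 passed the filter through the groups with the Zmiz1 vector, where they are high, so their tests give no support either. Myc had an interaction of 1.61: it averaged 0.807 FPKM in Notch1-titled and 6.51 FPKM in combined libraries, against 0.285 to 0.610 FPKM in the Zmiz1-titled libraries. It passed the filter through the combined libraries, where it is high, so this test gives no support for an interaction. At a pseudocount of 0.1 the adjusted p of the interaction was 0.535 for Ccr8, 0.0622 for Zmiz1 and 1.00 for Myc. The other 3 encode glycolytic enzymes, Aldoa (-1.10), Pgk1 (-0.908) and Tpi1 (-1.10). Zmiz1 alone left no called difference in them: Aldoa stood at 74.0, 76.9 and 73.1 FPKM in control and 70.0, 58.2 and 70.1 FPKM in Zmiz1-titled libraries, and its mean was 193 FPKM in Notch1-titled and 78.9 FPKM in combined libraries. Pgk1 averaged 374 and 194 FPKM in the last pair of groups and Tpi1 113 and 47.7 FPKM. The Tpi1 interaction was lost in 10 of the 12 fits without 1 library, with adjusted p up to 0.207.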

How the results depend on the processing

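Of genes called between Zmiz1-titled and control libraries, 214 in all, the count was 121 with a filter at 5 FPKM, where fewer genes are tested, and 49 with only the 2 groups in the fit, where fewer libraries give the variance (31 higher and 18 lower, 63.3% higher). It was 74 to 241 without each library in turn, the lowest without control replicate 3. With a replicate block, 365 genes were called, 213 of them shared with the 214. The correlation of deviations of same-numbered control and Zmiz1-titled libraries was 0.04, -0.02 and 0.01. The other groups were not part of that check, so whether the numbers mark a shared batch is not settled. The count was 206 at a pseudocount of 0.1, 276 with no filter, 220 with median ratio scaling and 207 with quantile normalization. For the interaction, 7 genes became 3 at a pseudocount of 0.1, 18 with no filter, 3 with a filter at 5 FPKM and 4 with quantile normalization, and 5 to 8 without each library; the cause was not tested. The difference of Lef1, 0.01, was -0.0332 with quantile normalization, and it ran from -0.0547 to 0.0403 over the fits without 1 library. Over those fits Ccr4 ran from -0.0913 to 0.708, Prkaa1 from -0.0732 to 0.122 and Pgk1 from -0.0798 to 0.00273, none of them called. Of the 77 named called genes, 73 kept their call with quantile normalization, 75 at a pseudocount of 0.1 and 32 with only the 2 groups in the fit. Depth in reads is unknown, so low FPKM values carry no counting interval.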

Other observations

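Genes under the filter of 1 FPKM were tested in a fit of all genes above 0. Of 6683 such genes, 38 were called higher and 40 lower in Zmiz1-titled libraries by limma. The following were picked out after their values had been seen. Myo6, which encodes an actin motor that moves towards filament minus ends, stood at 0.453, 0.337 and 0.411 FPKM in control and 2.42, 2.66 and 2.38 FPKM in Zmiz1-titled libraries (difference 1.32, limma adjusted p = 2.34e-07). Ctgf, a secreted matrix-associated protein gene, stood at 0.362, 0.251 and 0.205 FPKM against 1.14, 1.20 and 1.25 FPKM (difference 0.79, limma adjusted p = 4.06e-05). Both passed without each of the 6 libraries. Padi4, a peptidylarginine deiminase gene, was lower, at 0.425, 0.453 and 0.628 FPKM against 0.227, 0.0785 and 0.170 FPKM (difference -0.37, limma adjusted p = 0.0124). Tspan15, a tetraspanin gene, was lower too, at 0.319, 0.358 and 0.274 FPKM against 0.147, 0.112 and 0.130 FPKM (difference -0.22, limma adjusted p = 0.00857).

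Some called genes outside the lists and the naming rule, also picked out after their values had been seen, belong to the actin cytoskeleton and to T cell signalling. Tmsb4x, an actin-binding thymosin gene, stood at 78.9, 86.6 and 76.7 FPKM in control and 122, 111 and 124 FPKM in Zmiz1-titled libraries, and Cotl1, a coactosin gene, at 140, 149 and 143 FPKM against 195, 193 and 198 FPKM (limma adjusted p = 0.0186 and 0.00343). The Tmsb4x call held in 8 of the 12 fits without 1 library and reached 0.101, and that of Cotl1 held in all 12. Rasgrp1, the Ras activator downstream of the T cell receptor, stood at 236, 233 and 233 FPKM against 288, 329 and 286 FPKM, and the adaptor gene Lcp2 at 192, 187 and 185 FPKM against 224, 241 and 217 FPKM (limma adjusted p = 0.0209 and 0.019). Both calls were lost without any 1 control library, at up to 0.1 and 0.105. Tec, a T cell receptor proximal kinase gene, fell from 10.6, 9.65 and 10.3 FPKM to 6.91, 7.02 and 6.85 FPKM (limma adjusted p = 0.00168). Ltb, the lymphotoxin beta gene, fell from 47.9, 48.3 and 48.6 FPKM to 34.4, 30.3 and 38.9 FPKM (limma adjusted p = 0.015), a call also lost without any 1 control library, at up to 0.0784.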
